A study of Homo sapiens with 27 samples.

Results

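Of 39 listed genes of natural killer (NK) cells and leukocytes, 36 were measured in 3 human colorectal cancer lines, among 17687 genes on the array. The list was chosen by symbol, with earlier results of these data known: cytotoxic granule genes, NK receptors and their signalling adaptors, the chains of the interleukin-2 receptor, pan-leukocyte genes, and chemokines with the transcription factor TBX21. The listed NCR1, CORO1A and CCL4 are not named in the annotation table used here and were not analysed. The question is how much of this programme is seen in untreated cultures, in cultures that came through rounds with NK cells, and after withdrawal of those rounds.

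NK cells kill by releasing granules that hold perforin, a pore-forming protein, and granzymes, proteases that enter the target cell. The Fc receptor CD16 (FCGR3A) lets them act on antibody-coated cells, as when cetuximab binds EGFR on a colorectal cancer cell. Intestinal epithelial cells are not known for granule proteases or for CD45 (PTPRC), the phosphatase on the surface of nearly all nucleated blood cells.

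The study holds 27 arrays in 9 groups, LIM1215, SW48 and Caco2 each in 3 states with 3 arrays a group. Parental cells were the untreated lines, which the labels describe as grown from a single clone, so each line stands for 1 clone. Resistant cells (R20) came through 20 rounds in which 1000000 NK-CD16 cells and 1 ug per ml of cetuximab met 1000000 tumour cells in a 10 cm dish. Withdrawal cells (W20) were resistant cells kept for a further 20 rounds untreated. Every resistant and withdrawal group thus has met both agents, and neither agent was given alone. The labels name RNA from cell pellets. How NK cells were separated from the pellets, and the donor or line of the NK-CD16 cells, is not given in the sources used here. Whether replicates are separate cultures is not stated either, so each p-value measures the spread between these samples, which may be technical. In bulk RNA, fewer cells of a type and less RNA per cell cannot be told apart.

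Levels are the deposited values, read as log2 intensities. The highest is 18.78, above the 16 bits of a scanner, so the scale may be stretched or its base not 2, and folds below hold only if the base is 2. The background limit of a group is the 95th percentile of the 612 negative control probe sets, averaged over its arrays. Where single arrays are counted as above the limit, each was set against its own 95th percentile. The group limit lay at 7.36, 7.75 and 7.47 in parental, resistant and withdrawal LIM1215, at 6.72, 7.08 and 6.88 in SW48, and at 7.76, 7.88 and 7.99 in Caco2. The median gene lay at 7.90 to 8.05 on LIM1215 arrays, at 6.43 to 6.54 on SW48 arrays and at 6.99 to 7.08 on Caco2 arrays. Levels were therefore not compared between lines, and contrasts between lines compare changes. Replicate 3 of parental LIM1215 stood apart from the other parental arrays of that line, with all 16 measured type I interferon response genes over 1 log2 unit above both. Some results it bears on are given with and without it, and others with it only. The 9 measured colorectal epithelial markers averaged 14.97 to 15.15 over the LIM1215 arrays, 10.32 to 10.90 over SW48 and 13.97 to 14.27 over Caco2. In every group of LIM1215 9 of the 9 lay above the limit, in every Caco2 group 8, and in SW48 6, 7 and 6 in the parental, resistant and withdrawal state.

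Most of the NK and leukocyte genes were raised in the resistant cultures of all 3 lines and lay near their parental level after withdrawal. In resistant LIM1215, 18 of the 36 genes lay above the background limit, against 1 in the parental and 1 in the withdrawal group. In Caco2 the counts were 15 in the resistant group, 1 in the parental and 1 in the withdrawal group. In SW48 they were 6, 1 and 1. With the 99th percentile of the negative controls as the limit, 3 genes remained above it in resistant LIM1215, 3 in resistant Caco2 and 0 in resistant SW48. Single arrays gave 17 to 19 genes above their own limit in resistant LIM1215, 13 to 15 in resistant Caco2 and 3 to 7 in resistant SW48. Parental LIM1215 replicates 1, 2 and 3 gave 0, 0 and 2. The 1 gene above the limit in that group, IL2RG, was above it on replicate 3 only.

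**Figure D1:**
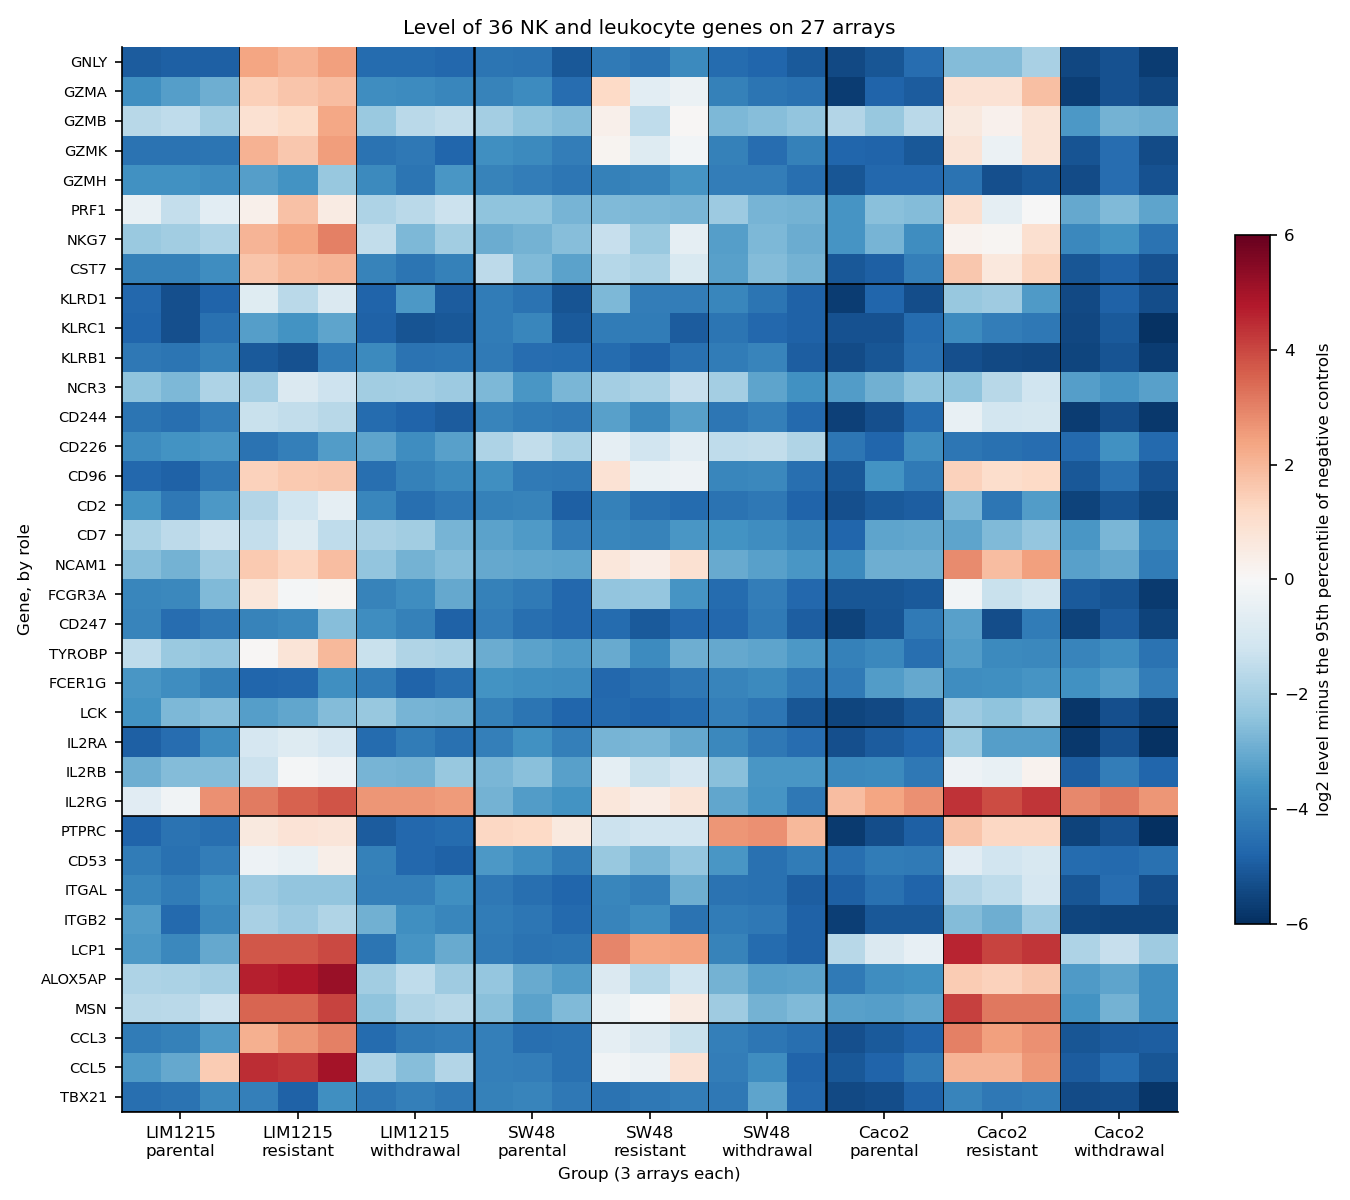
Colour shows the log2 level of each of 36 genes (vertical axis, by role) on each of 27 arrays (horizontal axis, 3 per group) minus that array's 95th percentile of negative controls, with the colour scale capped at 6 log2 units either way. The resistant columns of LIM1215 and Caco2 hold most of the red cells, with 18 and 15 genes above the limit, and resistant SW48 holds 6.

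By limma with Benjamini-Hochberg adjustment over all genes, 30 of the 36 genes rose from parental to resistant LIM1215 and 0 fell, where 5.42% of all genes rose and 5.39% fell. Their median change was 3.49 log2 units, against -0.0277 over all genes. In Caco2 31 rose and 0 fell, where 12.9% of all genes rose and 14.5% fell, with a median change of 3.21 against -0.026. In SW48 24 rose and 1 fell, where 10.9% of all genes rose and 11.8% fell, with a median change of 1.34 against -0.00206. At an unadjusted p under 0.05, 0 genes were lower in LIM1215, 0 in Caco2 and 2 in SW48. All 3 resistant arrays lay above all 3 parental arrays for 30 genes in LIM1215 (10.9% of all genes), for 30 in Caco2 (18.6%) and for 26 in SW48 (17.2%). Many of these changes took place under the background limit: in SW48 only 6 of the 24 genes that rose also passed the limit in the resistant group, against 18 of 30 in LIM1215 and 15 of 31 in Caco2. Without LIM1215 parental replicate 3, 30 genes again rose in that line, where 1300 of 17687 genes rose. The list was chosen with earlier results of these data known, so the shares of all genes give scale and no independent test.

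**Figure D2:**
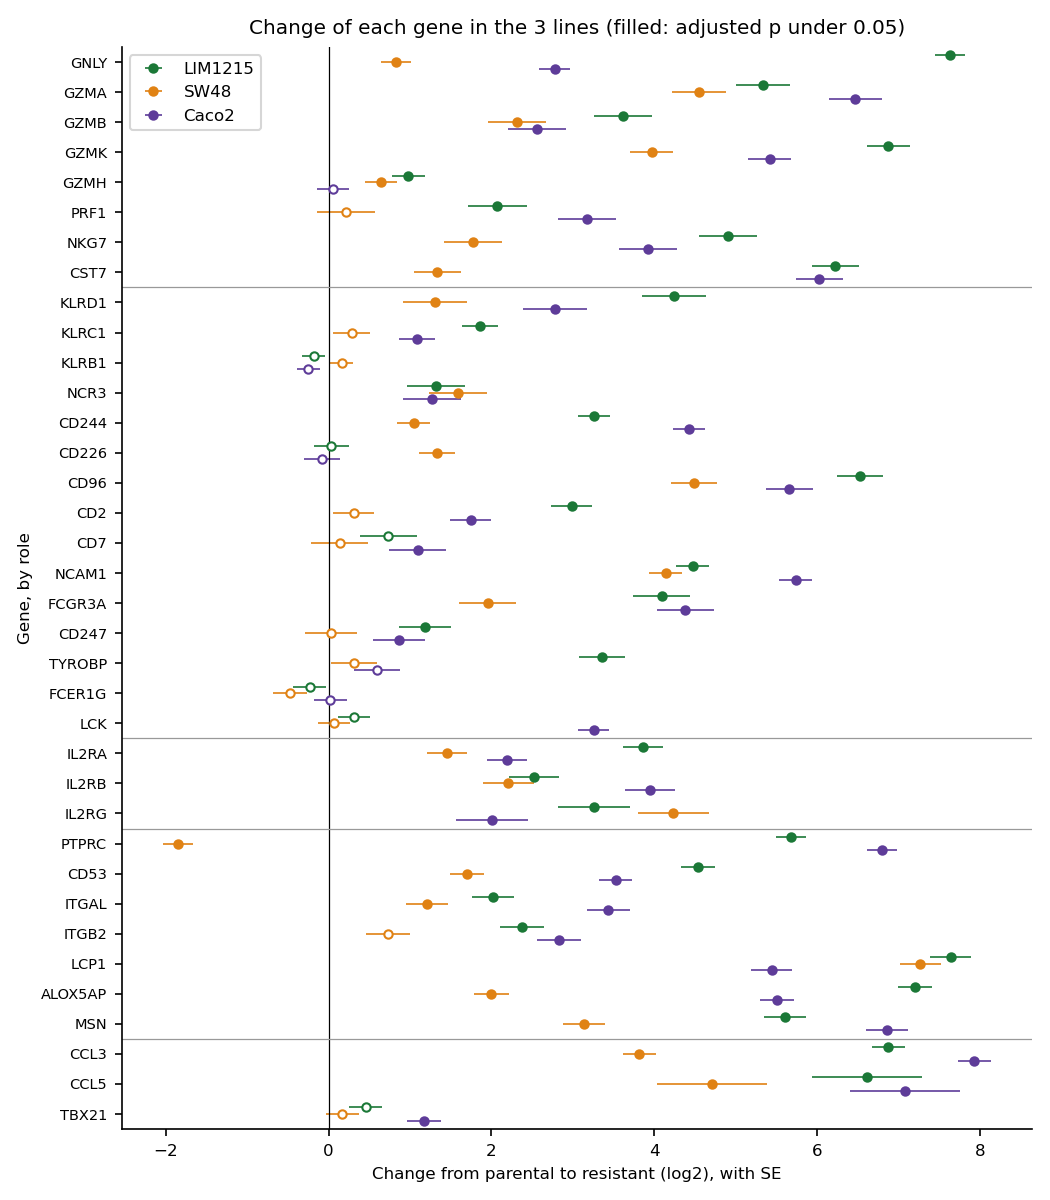
The horizontal axis gives the change from parental to resistant in log2 units with its standard error (SE), and the vertical axis lists the 36 genes by role, with a colour per line. Filled points passed the adjusted p threshold of 0.05: 30 in LIM1215, 25 in SW48 (PTPRC to the left of 0) and 31 in Caco2.

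The 8 cytotoxic granule genes carried some of the largest changes. All 8 rose in LIM1215, 7 in SW48 and 7 in Caco2. They had median changes of 5.12, 1.56 and 3.55 log2 units. In parental and withdrawal cells of the 3 lines, 0 of the 8 lay above the limit. In resistant cells 7 did in LIM1215, 6 in Caco2 and 1, GZMA, in SW48.

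GNLY encodes granulysin, a membrane-damaging granule protein. In LIM1215 its levels were 2.45, 2.61 and 2.22 on the parental arrays, 10.31, 10.12 and 9.74 on the resistant arrays and 2.82, 2.84 and 2.80 on the withdrawal arrays. The resistant arrays stood clear of all the others, with a change of 7.63 (SE 0.187, adjusted p = 1.5e-18), and their mean was at least 6.52-fold the background limit of the parental group. In Caco2 the parental arrays read 2.61, 2.60 and 2.93 and the resistant arrays 5.07, 5.42 and 5.98, a change of 2.77 (SE 0.187) that left all 3 resistant arrays under the limit. In SW48 the resistant arrays reached only 2.84, 2.72 and 3.19 against 2.17, 2.23 and 1.85 in parental cells. That change of 0.83 (SE 0.187, adjusted p = 0.00189) is one between values under the limit, for which no fold is given.

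GZMA, the tryptase-like granzyme, was the granule gene above the limit in resistant cells of every line. LIM1215 gave 3.75, 4.20 and 4.21 in parental and 9.34, 9.70 and 9.12 in resistant cells. SW48 gave 2.57, 2.89 and 2.36, then 8.27, 6.52 and 6.68, with 1 of the 3 resistant arrays above the limit. Caco2 gave 2.35, 2.94 and 2.50, then 8.55, 8.92 and 9.73. Parental and resistant arrays did not overlap in any line, and the changes were 5.33, 4.55 and 6.47 (SE 0.329 each). GZMK, a further tryptase-like granzyme, is the neighbour of GZMA, with 0 protein-coding genes between them. It changed by 6.87 in LIM1215, where resistant arrays read 10.03, 9.64 and 9.77 against 3.01, 3.08 and 2.73. In Caco2 it changed by 5.42, to 8.47, 7.69 and 8.71 from 3.27, 2.92 and 2.43. Both lines showed a full separation of the states. In SW48 GZMK changed by 3.97 and stayed under the limit.

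GZMB encodes the granzyme that cleaves after aspartate and activates caspases. Resistant LIM1215 arrays read 8.86, 9.20 and 9.57 against 5.76, 5.97 and 5.05 in parental cells, and resistant Caco2 arrays 8.28, 8.29 and 8.73 against 6.26, 5.47 and 5.89. The states did not overlap in either line, and the changes were 3.61 and 2.56 (SE 0.354 each). In SW48 GZMB rose by 2.31 with a resistant mean under the limit. Its neighbour GZMH, with 0 protein-coding genes between them, was under the limit in all 9 groups. The change of GZMH was 0.98 in LIM1215 (adjusted p = 0.00135), 0.64 in SW48 (adjusted p = 0.0208) and 0.05 in Caco2 (adjusted p = 0.896). The LIM1215 call was lost in the fit on the arrays of that line alone (adjusted p 0.0509). The SW48 call was lost without parental replicate 1, parental replicate 2 or resistant replicate 3, with adjusted p of 0.0509, 0.0601 and 0.11. GZMB and GZMH are alike in sequence, and their probe sets are open to cross-hybridization.

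PRF1 encodes perforin. Its resistant LIM1215 arrays read 8.21, 9.80 and 7.76, the widest range among the genes that rose in that line, against 6.97, 6.08 and 6.50 in parental cells (change 2.07, SE 0.358, adjusted p = 0.000235). In Caco2 PRF1 read 8.65, 7.49 and 7.93 against 4.48, 5.20 and 4.88 (change 3.17), with 1 of 3 resistant arrays above its own limit. In SW48 the change was 0.22 (adjusted p = 0.778). NKG7, a granule membrane protein, read 9.94, 10.43 and 10.28 in resistant LIM1215 against 5.21, 5.42 and 5.31 (change 4.90). CST7, the inhibitor cystatin F that acts on the proteases which activate granzymes, read 9.60, 10.00 and 9.29 against 3.38, 3.44 and 3.40 there (change 6.22) and 9.28, 8.67 and 9.27 against 2.92, 2.82 and 3.40 in Caco2 (change 6.03). Both genes separated the states fully in LIM1215 and Caco2. In SW48 NKG7 changed by 1.78 and CST7 by 1.34, each under the limit.

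**Figure D3:**
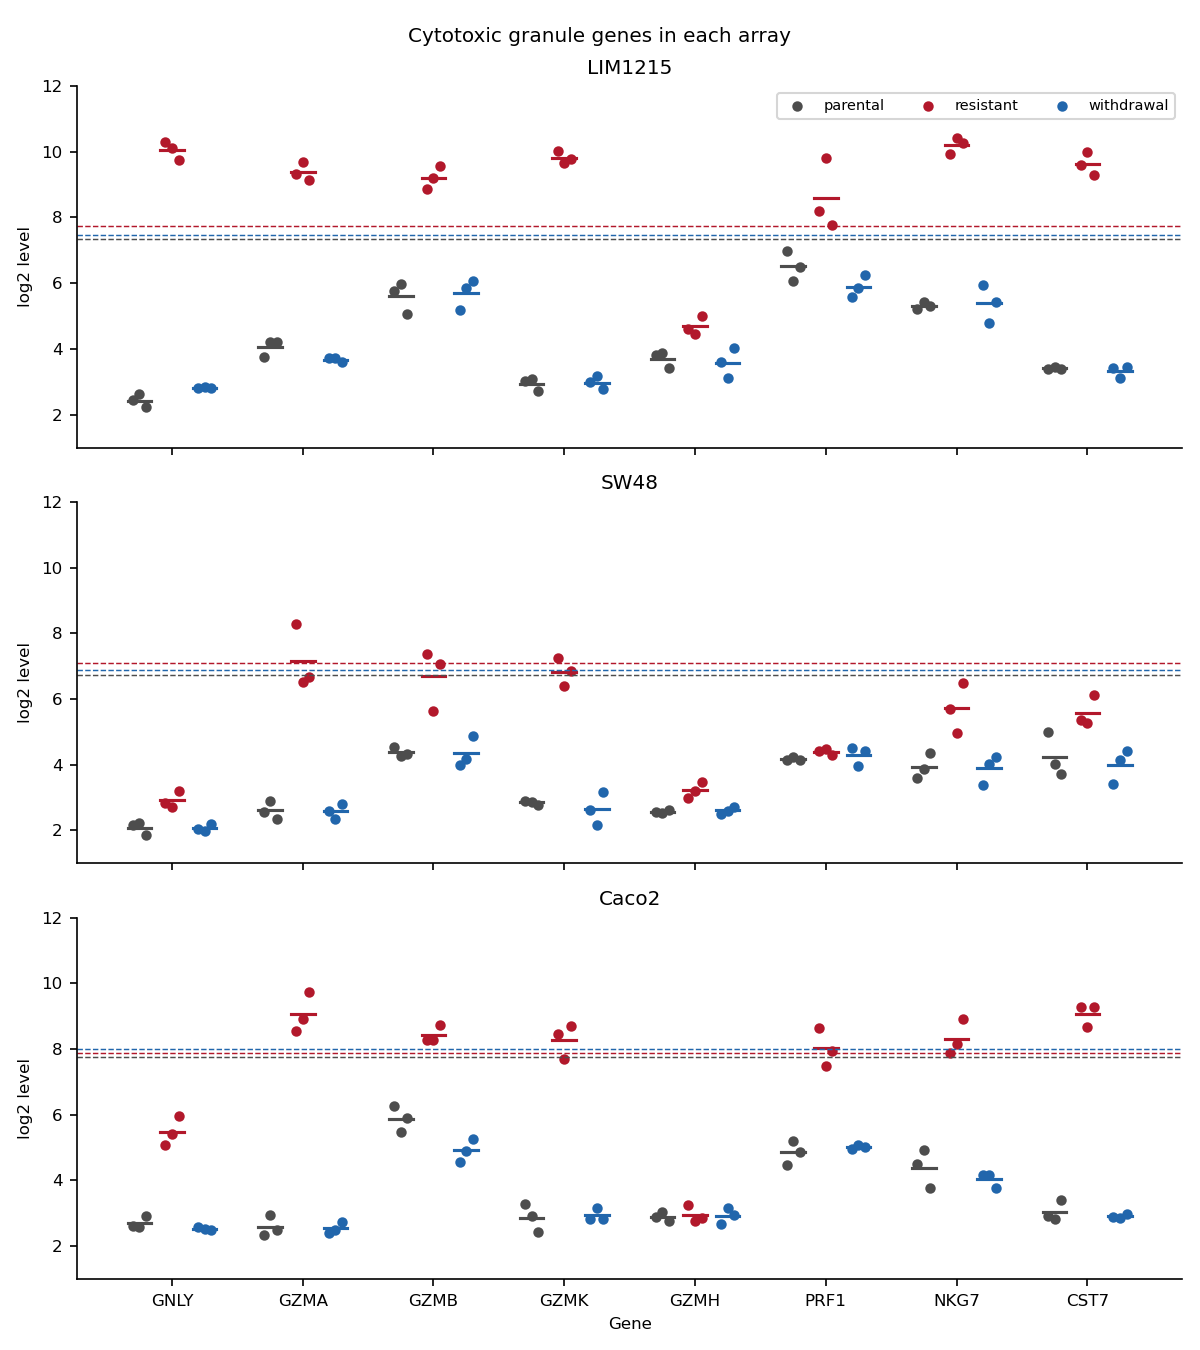
Points are single arrays, short bars are means of 3, and dashed lines are the background limits of the states, for 8 granule genes (horizontal axis) with the log2 level on the vertical axis and a panel per line. Resistant points rise above the dashed lines for 7 genes in LIM1215 and 6 in Caco2 and for GZMA in SW48, where GNLY stays near 3.

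The 250 bases before the starts of granule genes are shown because most of these genes rose in each line. Promoters of 26 of the 36 genes are in the RefSeq table (GRCh38.p14). They were searched on both strands for 3 motifs: TGTGGT (the core bound by RUNX factors), the interferon response element (GAAA and GAAA with 2 bases of any kind between) and TTCNNNGAA (STAT element). Matches may overlap. TGTGGT was found in 9 of the 26 promoters (34.6%) against 2981 of 27305 promoters of the same length (10.9%). The interferon response element was in 1 (3.85%) against 839 (3.07%), and TTCNNNGAA in 2 (7.69%) against 1850 (6.78%). By role, TGTGGT was in 4 of the 6 granule promoters held by the table, in 3 of 11 of receptors and adaptors, in 0 of 2 of interleukin-2 receptor chains, in 1 of 5 of pan-leukocyte genes and in 1 of 2 of chemokines and TBX21. A match did not go with a rise throughout: NKG7, above the limit in resistant LIM1215 and Caco2, has none, as has GZMH, under the limit in all groups, while FCER1G, which rose in no line, has one at -42. The 4 granule promoters with a match follow, 5′ to 3′ and ending at the base before the start, with matches to TGTGGT on either strand in capitals, and then those of GZMH and NKG7 without a match.
GNLY, chr2:85694108-85694357, plus strand: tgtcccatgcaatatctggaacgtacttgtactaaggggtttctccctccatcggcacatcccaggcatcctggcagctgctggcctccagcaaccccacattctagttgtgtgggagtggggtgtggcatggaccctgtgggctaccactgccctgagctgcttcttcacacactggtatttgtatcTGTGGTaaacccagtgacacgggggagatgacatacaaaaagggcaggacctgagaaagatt
GZMA, chr5:55102396-55102645, plus strand: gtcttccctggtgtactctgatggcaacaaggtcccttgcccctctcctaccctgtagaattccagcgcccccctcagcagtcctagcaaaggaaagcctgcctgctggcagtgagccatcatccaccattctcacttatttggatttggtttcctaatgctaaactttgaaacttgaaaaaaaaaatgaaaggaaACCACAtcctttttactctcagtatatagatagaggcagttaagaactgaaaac
GZMB, chr14:24634191-24634440, minus strand: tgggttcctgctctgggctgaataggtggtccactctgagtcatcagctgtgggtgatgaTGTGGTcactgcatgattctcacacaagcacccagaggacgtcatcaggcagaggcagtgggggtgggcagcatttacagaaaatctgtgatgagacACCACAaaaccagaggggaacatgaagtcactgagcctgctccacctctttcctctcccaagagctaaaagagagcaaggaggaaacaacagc
PRF1, chr10:70602742-70602991, minus strand: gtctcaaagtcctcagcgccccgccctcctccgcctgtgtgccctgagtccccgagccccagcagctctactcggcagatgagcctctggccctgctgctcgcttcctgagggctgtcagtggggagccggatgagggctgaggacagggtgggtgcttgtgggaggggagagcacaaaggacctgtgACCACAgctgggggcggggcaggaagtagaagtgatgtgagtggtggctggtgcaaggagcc
GZMH, chr14:24609686-24609935, minus strand: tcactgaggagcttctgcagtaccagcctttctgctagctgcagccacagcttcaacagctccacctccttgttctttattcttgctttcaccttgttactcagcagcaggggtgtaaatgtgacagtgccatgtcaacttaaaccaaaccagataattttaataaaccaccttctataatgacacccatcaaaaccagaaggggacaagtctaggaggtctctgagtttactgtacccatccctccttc
NKG7, chr19:51372655-51372904, minus strand: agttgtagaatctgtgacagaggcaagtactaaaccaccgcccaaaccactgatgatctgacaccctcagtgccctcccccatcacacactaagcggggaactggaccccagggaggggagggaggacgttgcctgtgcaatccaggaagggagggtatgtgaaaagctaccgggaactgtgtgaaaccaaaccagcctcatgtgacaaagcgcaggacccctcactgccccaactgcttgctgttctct
The first base of the match lies at -62 in GNLY, -54 in GZMA, -190 and -93 in GZMB and -62 in PRF1, counted from the start. These are matches of letters and not measured binding sites.

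Of the 15 measured receptors and adaptors, 10 rose in LIM1215, 7 in SW48 and 11 in Caco2. Their median changes were 1.86, 0.32 and 1.26. Few reached the background limit: CD96, NCAM1, FCGR3A and TYROBP in resistant LIM1215, and CD96 with NCAM1 in both other lines. In SW48 the mean of CD96 was above the limit with 1 of its 3 arrays. CD96 is a receptor of NK and T cells for nectin-like ligands. Its resistant arrays read 9.29, 9.61 and 8.88 in LIM1215, 7.95, 6.79 and 6.72 in SW48 and 9.07, 9.10 and 9.14 in Caco2. Its parental arrays read 2.72, 2.64 and 2.85, then 2.88, 2.46 and 2.66, then 2.94, 4.13 and 3.28. The states were fully apart in each line, with changes of 6.53, 4.49 and 5.66 (SE 0.283 each). The CD96 promoter holds 2 TGTGGT matches, at -129 and -60, and a TTCNNNGAA match at -180, all in capitals here.
CD96, chr3:111541947-111542196, plus strand: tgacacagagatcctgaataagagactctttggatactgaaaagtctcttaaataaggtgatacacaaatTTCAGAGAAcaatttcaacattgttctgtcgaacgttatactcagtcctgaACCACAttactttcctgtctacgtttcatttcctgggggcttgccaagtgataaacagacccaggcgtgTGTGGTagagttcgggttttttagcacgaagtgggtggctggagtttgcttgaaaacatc

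NCAM1, the adhesion molecule CD56 by which human NK cells are recognised, rose above the limit in all 3 lines. It read 9.50, 9.31 and 9.11 in resistant LIM1215, 7.75, 7.56 and 7.91 in resistant SW48 and 10.52, 9.89 and 10.38 in resistant Caco2. Every parental array was under 5. The changes were 4.47, 4.14 and 5.74 (SE 0.2 each), and the bounds over the parental limit were at least 3.86-fold, 2.02-fold and 5.68-fold. FCGR3A, the CD16 named in the label of the NK cells, read 8.59, 7.95 and 7.38 in resistant LIM1215 against 3.52, 3.63 and 4.48 (change 4.09, SE 0.349). It was 7.52, 6.72 and 6.85 against 2.90, 2.61 and 2.44 in Caco2 (change 4.38) and 4.70, 4.86 and 3.46 against 2.52, 2.42 and 2.22 in SW48 (change 1.95). FCGR3A thus rose in all 3 lines, and passed the limit in LIM1215 on 2 of 3 arrays. The array values do not tell a transgene from the cell's own gene.

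The adaptors that couple CD16 and other receptors to kinases behaved unevenly. TYROBP (DAP12) rose in LIM1215, to 8.01, 8.84 and 9.21 from 5.91, 5.28 and 4.81 (change 3.36, SE 0.285), and not in SW48 (0.32, adjusted p = 0.534) or Caco2 (0.59, adjusted p = 0.136). FCER1G, the Fc receptor gamma chain, passed in none of the 3 lines, with changes of -0.23, -0.47 and 0.02 and every array at or under 4.45. In SW48 it was called lower with quantile normalization (adjusted p 0.00946) and in the fit on the arrays of that line alone (adjusted p 0.0408). CD247, the zeta chain, changed by 1.19 in LIM1215 (adjusted p = 0.0151), 0.03 in SW48 (adjusted p = 0.974) and 0.87 in Caco2 (adjusted p = 0.0451). The Caco2 call on CD247 was lost under 7 of 13 alternatives, among them leaving out parental replicate 1, parental replicate 2, resistant replicate 1 or resistant replicate 3 (adjusted p 0.165, 0.14, 0.316 and 0.118), and the LIM1215 call without parental replicate 2 or resistant replicate 3 (adjusted p 0.0591 and 0.0986). LCK, the Src-family kinase that phosphorylates such chains, rose in Caco2 alone by the test, to 5.50, 5.64 and 5.86 from 2.50, 2.32 and 2.41 (change 3.25, adjusted p = 6.98e-12). The change of LCK was larger in Caco2 than in LIM1215 by 2.94 (SE 0.275) and than in SW48 by 3.18 (SE 0.275). All LCK values were under the limit.

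KLRD1 (CD94) rose in the 3 lines by 4.24, 1.31 and 2.78 in LIM1215, SW48 and Caco2, and its partner KLRC1 (NKG2A), open to cross-hybridization with related genes, by 1.86 and 1.09 in LIM1215 and Caco2. The SW48 call on KLRD1 was lost without parental replicate 3 or resistant replicate 1 (adjusted p 0.0892 and 0.154). CD244, a SLAM-family receptor, rose by 3.26, 1.05 and 4.42, and NCR3, the natural cytotoxicity receptor NKp30, by 1.32, 1.59 and 1.26. The NCR3 call was lost in LIM1215 without parental replicate 2 or resistant replicate 2 (adjusted p 0.0655 and 0.135) and with quantile normalization (0.0594), and in Caco2 without resistant replicate 3 (0.0702). CD2, an adhesion receptor of T and NK cells, rose by 2.99 in LIM1215 and 1.74 in Caco2. CD226 (DNAM-1) rose in SW48 only by the test, to 6.50, 6.03 and 6.40 from 4.70, 5.21 and 5.02 (change 1.33, adjusted p = 5.87e-05). That change was larger than in LIM1215 by 1.30 and than in Caco2 by 1.41, with adjusted p of 0.00374 and 0.00115 for the differences. CD7 passed in Caco2 (1.09, adjusted p = 0.0198), where 4 of 13 alternatives ended the call, among them leaving out parental replicate 1, resistant replicate 2 or resistant replicate 3 (adjusted p 0.163, 0.0754 and 0.105). In LIM1215 CD7 did not pass (0.73, adjusted p = 0.218), though it did without resistant replicate 3 (adjusted p 0.0494). KLRB1 (CD161) passed in no line and was at or under 3.58 on every array. The group means of the genes of this paragraph were all under the background limit.

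The 3 chains of the interleukin-2 receptor, whose ligand is the growth factor of cultured NK cells, rose in each line, with median changes of 3.26, 2.21 and 2.20. IL2RA rose by 3.87, 1.46 and 2.20 and IL2RB by 2.52, 2.21 and 3.95, both with group means under the limit throughout. IL2RG, the common gamma chain shared by several cytokine receptors, was different because cancer cells without any challenge already gave a signal. Parental Caco2 read 9.90, 10.08 and 10.23, resistant Caco2 12.03, 11.97 and 12.21 and withdrawal Caco2 10.91, 10.88 and 10.86. The rise to the resistant state was 2.01 (SE 0.441, adjusted p = 0.00115), and withdrawal arrays lay between the other states. In parental LIM1215 IL2RG read 6.74, 7.28 and 9.88, in resistant 11.04, 11.61 and 11.04 and in withdrawal cells 10.04, 10.12 and 10.09. Only replicate 3 of the parental arrays was above the limit. With it the rise to resistant was 3.26 (SE 0.441), and without it 4.22 (SE 0.193). In SW48 IL2RG rose from 3.74, 3.32 and 3.36 to 7.74, 7.60 and 7.79 and was 3.56, 3.19 and 2.94 after withdrawal.

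The 7 measured pan-leukocyte genes all rose in LIM1215 and in Caco2, with median changes of 5.61 and 5.44. In SW48 5 rose and 1 fell, with a median of 1.70. LCP1, the actin bundling protein L-plastin, was above the limit on all 3 resistant arrays of every line. Its levels were 4.0, 3.66 and 4.08 in parental and 11.65, 11.76 and 11.25 in resistant LIM1215. They were 2.35, 2.24 and 2.56 in parental and 9.98, 9.53 and 9.44 in resistant SW48. In Caco2 they were 6.38, 6.86 and 6.99 in parental and 12.24, 12.08 and 12.23 in resistant cells. Parental arrays were under the limit in all 3 lines, and the changes were 7.64, 7.27 and 5.44 (SE 0.253 each). The bounds over the parental limit were at least 18.3-fold, 7.61-fold and 21.5-fold.

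ALOX5AP, the protein that presents arachidonate to 5-lipoxygenase, read 12.58, 12.86 and 12.45 in resistant LIM1215 against 5.57, 5.60 and 5.12 (change 7.20, at least 38.7-fold over the parental limit). It read 9.19, 9.41 and 9.55 in resistant Caco2 against 3.77, 3.99 and 3.85 (change 5.51). In SW48 it changed by 2.00 and stayed under the limit. MSN, the membrane-cytoskeleton linker moesin, read 11.43, 11.55 and 11.32 in resistant LIM1215 against 5.78, 5.87 and 5.83 (change 5.61) and 11.80, 11.19 and 11.08 in resistant Caco2 against 4.76, 4.41 and 4.32 (change 6.86). In SW48 MSN changed by 3.14, to 6.65, 7.05 and 7.52, with a group mean under the limit. Moesin and L-plastin are not restricted to blood cells. CD53, a leukocyte tetraspanin, rose by 4.54, 1.70 and 3.53, and ITGAL, the alpha chain of the integrin LFA-1, by 2.02, 1.21 and 3.44. ITGB2, its beta chain, rose by 2.37 in LIM1215 and 2.83 in Caco2. In SW48 ITGB2 changed by 0.73 (adjusted p = 0.0554), and passed under 6 of 13 alternatives, quantile normalization and leaving out resistant replicate 3 (adjusted p 0.0226) among them. The group means of these 3 genes were all under the limit.

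PTPRC was the gene whose direction differed. In LIM1215 it rose from 2.62, 3.08 and 2.63 to 8.50, 8.86 and 8.01 and read 2.44, 2.74 and 2.89 after withdrawal. In Caco2 it rose from 2.31, 2.43 and 2.62 to 9.33, 9.27 and 9.16 and read 2.47, 2.50 and 2.06 after withdrawal. In SW48 parental arrays were above the limit, at 7.78, 7.88 and 7.50, resistant arrays were under it, at 5.78, 6.0 and 5.85, and withdrawal arrays were the highest, at 9.32, 9.49 and 9.21. The 3 states of SW48 did not overlap. The fall to resistant was -1.85 (SE 0.185, adjusted p = 7.35e-08), and the withdrawal level exceeded the parental by 1.62 (SE 0.185, adjusted p = 5.5e-06). In SW48 PTPRC thus moved against the other 24 genes that passed.

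Both measured chemokines rose in all 3 lines. CCL3 (MIP-1 alpha), secreted by activated NK cells, read 10.04, 10.68 and 10.30 in resistant LIM1215 against 3.23, 3.44 and 3.72, and 10.72, 10.49 and 10.70 in resistant Caco2 against 2.75, 2.69 and 2.69. The changes were 7.93 in Caco2, 6.87 in LIM1215 and 3.82 in SW48 (SE 0.202 each). In SW48 it stayed under the limit. CCL3 and CCL4 are alike in sequence and neighbours, and the CCL3 probe set is open to cross-hybridization. CCL5 (RANTES) read 12.36, 12.34 and 12.24 in resistant LIM1215, 6.86, 6.84 and 7.88 in resistant SW48 and 9.71, 10.09 and 10.54 in resistant Caco2. Parental arrays read 4.02, 4.43 and 8.66 in LIM1215, 2.46, 2.54 and 2.44 in SW48 and 2.94, 2.92 and 3.25 in Caco2. Replicate 3 of parental LIM1215 was again the array that stood apart, and the change in LIM1215 was 6.61 (SE 0.674) with it and 8.09 (SE 0.279) without it. In SW48 and Caco2 CCL5 changed by 4.71 and 7.08. TBX21 (T-bet), a transcription factor of NK and T helper cells, rose in Caco2 by 1.18 (adjusted p = 0.000117) under the limit, and gave 0.45 in LIM1215 (adjusted p = 0.201) and 0.17 in SW48 (adjusted p = 0.679).

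On that parental LIM1215 array, CCL5 and IL2RG were the 2 of the 36 genes (5.56%) over 1 log2 unit above both other arrays, against 692 of all genes (3.91%), 8 of 17 interferon gamma response genes (47.1%) and 16 of 16 type I interferon response genes. Over the 3 parental arrays the mean level of the type I list ranged from 7.18 to 12.47. The part of interferon signalling in CCL5 and IL2RG was not tested. In the resistant groups, 12, 12 and 13 of the 17 interferon gamma response genes and 3, 7 and 12 of the 16 type I genes rose in LIM1215, SW48 and Caco2. Without LIM1215 parental replicate 3 the LIM1215 counts were 14 of 17 and 14 of 16, where 1300 of 17687 genes rose. With the pooled spread, that array also widens the SE behind the SW48 and Caco2 counts, which are given with it only. In SW48, for instance, IFIT1 changed by 2.36 (SE 0.97) and was not called by limma (adjusted p = 0.0894).

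**Figure D4:**
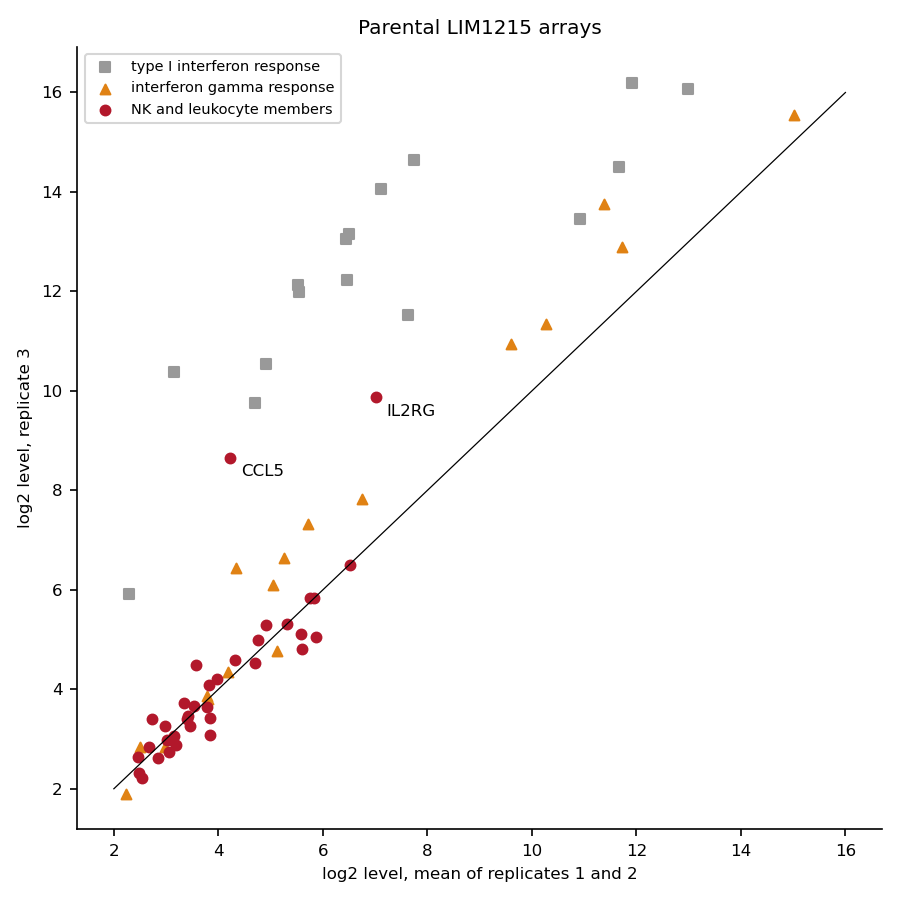
Each point is a gene, with its log2 level averaged over replicates 1 and 2 of parental LIM1215 on the horizontal axis and its level in replicate 3 on the vertical axis, and the line marks equal levels. CCL5 at 8.66 and IL2RG at 9.88 stand above the line with the type I interferon genes, while most other NK and leukocyte genes lie near it.

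After withdrawal most of the listed genes lay near their parental values, nearly all with both values under the limit. From resistant to withdrawal, 30 of 36 genes fell in LIM1215 and 0 rose (all genes 14.4% lower, 13.6% higher), with a median change of -3.56. In Caco2 29 fell and 0 rose (all genes 12.5% lower, 12.1% higher), with a median of -3.37. In SW48 23 fell and 1, PTPRC, rose (all genes 11.1% lower, 11.1% higher), with a median of -1.27. At an unadjusted p under 0.05, 1 gene was higher in LIM1215 and 0 in Caco2. IL2RG, with parental means above the limit in LIM1215 and Caco2, was not called lower by limma in either. Its changes from resistant to withdrawal were -1.15 (adjusted p = 0.0561) in LIM1215 and -1.19 (adjusted p = 0.0525) in Caco2. In both lines all withdrawal arrays of IL2RG lay under all resistant arrays. The pooled SE of 0.441 is widened by LIM1215 parental replicate 3, and these changes are given with that array only. The missing calls on IL2RG therefore do not show that its level was kept. Between withdrawal and parental cells 35 of 36 genes differed by less than 1 log2 unit in LIM1215, 35 in SW48 and 36 in Caco2, and the median size of the difference was 0.24, 0.12 and 0.18.

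Few genes differed between withdrawal and parental cells by the test. In LIM1215 IL2RG was higher by 2.11 (SE 0.441, adjusted p = 0.00138) and FCER1G lower by 0.64, from a mean of 3.59 to 2.95 under the limit (adjusted p = 0.0296), where 9.89% of all genes were higher and 11.2% lower. Without LIM1215 parental replicate 3 the difference of IL2RG was 3.07 (SE 0.193), that of FCER1G -0.89, and CCL5 was also called higher, by 1.19 (SE 0.279, adjusted p = 0.00224). In that fit 2357 of 17687 genes were higher and 2662 lower. The CCL5 difference lies under the limit, between a withdrawal mean of 5.42 and parental arrays at 4.02 and 4.43. In SW48 PTPRC was higher and 0 genes were lower, where 1.78% of all genes were higher and 2.3% lower. In Caco2 limma called 0 of 36, where 2.73% of all genes were higher and 2.54% lower. At an unadjusted p under 0.05, 5 genes were higher (GNLY, CD96, LCK, IL2RG and ITGB2) and 1 was lower (FCER1G) in LIM1215. All of these but IL2RG were under the limit in both groups. In Caco2 1 gene was higher (ALOX5AP) and 2 were lower (GZMB and LCP1), and in SW48 1 was higher (PTPRC) and 0 lower. With only the arrays of the line in the fit, 2 were called in Caco2 and 0 in LIM1215. The largest differences in Caco2 were -0.96 for GZMB (adjusted p = 0.147) and 0.82 for IL2RG (SE 0.441, adjusted p = 0.407). With the pooled spread, LIM1215 parental replicate 3 also widens that SE, which was 0.193 in LIM1215 without the array. For IL2RG all Caco2 withdrawal arrays lay above all Caco2 parental arrays. The Caco2 count of 0 is given with that LIM1215 array only, so it cannot decide whether IL2RG stayed higher in Caco2.

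Some of the listed genes rose to a different extent in the 3 lines. The change from parental to resistant differed between LIM1215 and SW48 for 20 of 36 genes (all genes 18.3%), larger in LIM1215 for 19 of them (all genes 9.6%) and larger in SW48 for CD226 (all genes 8.67%). Between SW48 and Caco2 it differed for 24 (all genes 25.9%), 21 of them with the larger change in Caco2 (all genes 13%) and 3 with the larger in SW48 (all genes 12.9%), which were CD226, LCP1 and IL2RG. Most of these contrasts rest on parental values under the limit, so they compare differences of deposited values. For LCP1 the bounds over the parental limit run in the other order, at least 7.61-fold in SW48, 18.3-fold in LIM1215 and 21.5-fold in Caco2. Such bounds are lower limits of each change, so their order does not rank the changes. Between LIM1215 and Caco2 it differed for 17 (all genes 21.3%), 9 with the larger change in LIM1215 (all genes 10.4%) and 8 with the larger in Caco2 (all genes 10.8%). The differences between LIM1215 and Caco2 thus ran in both directions. Among those with the larger change in Caco2, the bounds of MSN and CCL3 run in the other order too. They were at least 16.8-fold in LIM1215 and 12.2-fold in Caco2 for MSN, and 7.91-fold and 7.39-fold for CCL3. GNLY changed more in LIM1215 than in Caco2 by 4.86 (SE 0.264, adjusted p = 5.38e-12), and TYROBP by 2.76 (SE 0.402, adjusted p = 1.78e-05). In the same pair NCAM1 changed more in Caco2 by 1.27 (SE 0.282), IL2RB by 1.42 (SE 0.437) and ITGAL by 1.41 (SE 0.37). GZMA, CD96 and CST7 changed by 5.33, 6.53 and 6.22 in LIM1215 and by 6.47, 5.66 and 6.03 in Caco2, and were not called in that pair. LIM1215 parental replicate 3 widens the pooled SE of CCL5 (0.953) and IL2RG (0.624) in these contrasts, which are given with it only. Missing calls on CCL5 and IL2RG between lines therefore do not show that their changes were alike.

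Across the 3 lines, 22 genes rose in all 3, 7 in 2 lines, 5 in 1 line, and KLRB1 and FCER1G in none. Over the 36 genes, which are not independent replicates, the changes in LIM1215 and Caco2 had a Pearson r of 0.81 and a Spearman rho of 0.787. LIM1215 and SW48 gave 0.609 and 0.671, and SW48 and Caco2 0.568 and 0.614. These pairs share no arrays, but they share the probe sets and their floor. Among the genes that rose, replicate 1 was the highest of the resistant arrays for 10 genes in LIM1215, 12 in SW48 and 15 in Caco2, replicate 2 for 16, 2 and 1, and replicate 3 for 4, 10 and 15. The median range over the 3 resistant arrays was 0.67, 0.78 and 0.71 log2 units in the same order of lines.

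Other genes listed for NK cells and leukocytes were also counted, where 5.42%, 10.9% and 12.9% of all genes rose in LIM1215, SW48 and Caco2. Some of these were above the limit in cancer cells that had met no NK cells. In parental LIM1215 SYK had a mean of 11.72 and RAC2 one of 10.49. Of 51 other measured NK and lymphocyte genes 28 rose and 0 fell in LIM1215, 16 rose and 3 fell in SW48, and 33 rose and 1 fell in Caco2, with median changes of 1.08, 0.32 and 1.09. In LIM1215 the granule proteoglycan SRGN rose by 6.12, the chemokine XCL1 by 5.84 and the protease CTSW by 5.77. In Caco2 CTSW rose by 5.42 and the signalling adaptor SH2D1A by 5.16. In SW48 the transcription factor RUNX3 rose by 5.18, while the kinase SYK fell by 3.72. The other SW48 genes that fell were CX3CR1 and PRDM1. SYK and PRDM1 were above the limit in parental SW48, at means of 7.88 and 10.95. Most rises in LIM1215 and SW48 took place under the limit. Those above it when resistant were CTSW, SRGN, XCL1, SH2D2A, TNFSF10 and EOMES in LIM1215, and RUNX3 and PLCG2 in SW48. TNFSF10, EOMES and PLCG2 were above it in the parental cells as well. Of 25 other pan-leukocyte genes 19, 10 and 22 rose in LIM1215, SW48 and Caco2 and 0 fell, with medians of 1.70, 0.66 and 1.53. Without LIM1215 parental replicate 3, 17 of these 25 rose in LIM1215 and 0 fell. Of the 51 other NK and lymphocyte genes 28 rose and 1 fell without that array. In that fit 1300 of 17687 genes rose and 1303 fell. LAPTM5, a lysosomal membrane protein of blood cells, rose by 4.96 in LIM1215. Of the pan-leukocyte genes that rose, only LAPTM5 and HCLS1 were above the limit in resistant LIM1215, and those in SW48 all stayed under it. The 2 lists share IKZF1, VAV1, WAS, LCP2 and CD48.

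Markers of other cell types the pellets could hold were counted too. Of 9 T cell markers 2 rose in LIM1215, 1 in SW48 and 4 in Caco2, while the mean of the list ran from 3.64 to 3.66 on parental and 4.23 to 4.50 on resistant LIM1215 arrays. The same ranges were 2.64 to 2.81 and 2.84 to 3.00 in SW48, and 3.08 to 3.30 and 4.26 to 4.48 in Caco2. CD3E, a chain of the T cell receptor complex, was the 1 of the 9 above the limit, in resistant LIM1215 (mean 8.66, change 4.35) and resistant Caco2 (mean 7.95, change 3.89), and all 9 were under it in SW48. Of 5 B cell markers 1, 1 and 0 rose, and 0 of 5 lay above the limit in any resistant group. Of 12 myeloid markers 2 rose in LIM1215, 1 rose and 1 fell in SW48 and 5 rose in Caco2, where the mean of the list was 4.97 to 5.20 on parental and 5.89 to 6.0 on resistant arrays. There the lysozyme gene LYZ rose by 4.53 and CD68 by 2.83. LYZ, CD14 and CSF1R were above the limit in parental Caco2 as well, at means of 8.86, 8.38 and 8.11. After withdrawal LYZ in Caco2 exceeded its parental level by 2.21 (adjusted p = 1.56e-06 by limma). Of 6 fibroblast markers 0, 0 and 1 rose. Of 9 epithelial markers 0 rose and 0 fell in LIM1215, 3 rose and 2 fell in SW48, and 2 rose and 0 fell in Caco2. NK cell RNA in the pellets and transcription by the cancer cells cannot be told apart in these groups, since every resistant pellet came from cultures given NK cells. The share of each was not tested.

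**Figure D5:**
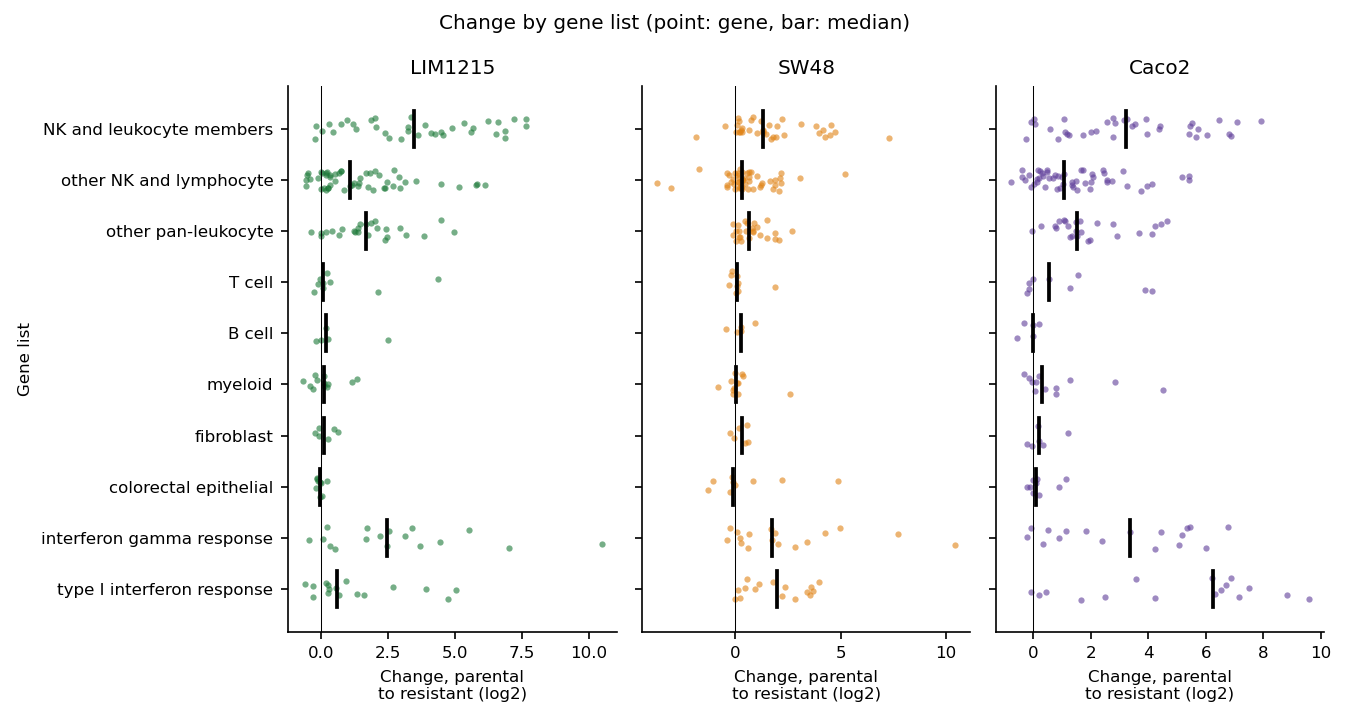
Points are genes, with the change from parental to resistant in log2 units on the horizontal axis, the gene list on the vertical axis and a panel per line, and black bars mark the medians. The 36 genes have medians of 3.49, 1.34 and 3.21 in LIM1215, SW48 and Caco2, while the bars of the B cell, fibroblast and epithelial lists lie at 0.32 or less.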

How the data were processed

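The 27 Affymetrix arrays were hybridised with biotin-labelled cDNA made from 250 ng of RNA, per the labels' protocols. The authors deposited 1 value per probe set and array, read here as log2 intensity. Neither the software nor the normalization of that step is given in the sources used here. Values were used as deposited.

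Of 24351 probe sets, 17709 were named by 1 gene symbol each, and the brightest was kept for 20 genes with several, which left 17687 genes with no filter on dim genes. In R 4.3.3, limma 3.58.1 (lmFit, then eBayes) estimated the 9 group means from all 27 arrays, with 18 residual degrees of freedom and 4.12 from the prior. In each of 12 contrasts the two-sided p-values of all genes were adjusted by Benjamini-Hochberg, and genes with an adjusted p under 0.05 were called. "Rose" and "fell" are used of called genes. The fit was tested on simulated data. An "at least" fold sets the resistant mean against the parental background limit, for genes with 0 parental arrays above it.

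The members and the other lists were chosen with earlier results of these data known. Array values are given for up to 12 members per line by size of change, called and above the limit, and for members above it in parental cells. Others were described after their values were seen. Of the other lists up to 4 genes per line could be named by size of change, and further ones were named for their level. Alternatives were quantile normalization, median centring, a filter on dim genes, fits within a line, limma-trend, a replicate block, mean probe sets, all transcript probe sets, and each array left out. Replicate numbers do not pair the samples: same-numbered arrays correlated at -0.0407 to 0.0749 after group means were removed. Promoters are RefSeq's. Figures were drawn with matplotlib 3.10.9 in Python 3.11.15. The precision is limited by the number of arrays.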

Additional observations from a re-analysis of the deposited data

Results flagged for a closer look

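The change from parental to resistant was tested for a difference between lines with limma. Between LIM1215 and SW48 it differed for 20 of 36 genes (all genes 18.3%). The largest differences, all with the larger change in LIM1215, were 7.52 for PTPRC, 6.80 for GNLY, 5.20 for ALOX5AP, 4.89 for CST7 and 3.13 for NKG7. In SW48 GNLY, ALOX5AP, CST7 and NKG7 lay under the limit in both states, so their contrasts compare differences of deposited values. Between LIM1215 and Caco2 it differed for 17 genes (all genes 21.3%), with 4.86 for GNLY, -2.94 for LCK, 2.76 for TYROBP, 2.20 for LCP1 and 1.70 for ALOX5AP (LIM1215 minus Caco2). For LCP1 the bounds over the parental limit, at least 18.3-fold in LIM1215 and 21.5-fold in Caco2, run in the other order. As lower limits they do not rank the changes. Between SW48 and Caco2 it differed for 24 genes (all genes 25.9%), with -8.65 for PTPRC, -4.69 for CST7, -4.11 for CCL3, -3.72 for MSN and -3.51 for ALOX5AP (SW48 minus Caco2). PTPRC is the 1 gene among these that fell in a line.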

How the results depend on the processing

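No called result reversed under the alternatives run. Of the changes from parental to resistant, 7 had a sign that differed between alternatives, and 0 of these were called as reported. Of 1455 values of this change for the 36 genes in 3 lines under the alternatives, 1423 kept their side of the threshold, 23 lost the call and 9 gained it. The filter on dim genes kept 17 of the 36 in the fit, nearly all through the resistant arrays, so its counts lend the rise no support. It called 17, 15 and 16 from parental to resistant in LIM1215, SW48 and Caco2, 17, 15 and 16 from resistant to withdrawal, and 1 in LIM1215 and 1 in Caco2 from parental to withdrawal. For differences between lines it called 11 (LIM1215 and SW48), 9 (LIM1215 and Caco2) and 14 (SW48 and Caco2), since fewer genes were tested. Between withdrawal and parental LIM1215, quantile normalization and median centring each called 1 and the fit within the line 0, in place of 2. In Caco2 that fit called 2 and the replicate block 1, in place of 0, and the cause was not tested. The replicate block, for numbers that do not pair the samples, left the other counts within 1 of those reported. With the 99th percentile of negative controls, 0, 3 and 0 genes lay above the limit in parental, resistant and withdrawal LIM1215, 0, 0 and 0 in SW48, and 0, 3 and 1 in Caco2.

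With each array of the compared groups left out in turn, the counts from parental to resistant were 28 to 30, 24 to 25 and 28 to 31 in LIM1215, SW48 and Caco2. From resistant to withdrawal they were 28 to 30, 23 to 24 and 28 to 29, and between withdrawal and parental 1 to 3, 1 to 1 and 0 to 0. The differences between lines gave 20 to 22, 15 to 18 and 23 to 26. Above the limit lay 0 to 1, 18 to 19 and 1 in LIM1215 by state, 1, 5 to 9 and 1 in SW48, and 1, 14 to 15 and 1 in Caco2. Median centring shifted the median of all genes between withdrawal and resistant LIM1215 to 0.124. Signal near background limits these data: most changes start, and in SW48 often end, under the limit.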
